A study of Mus musculus with 9 samples.

Results

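Eid2, Nbea, Depp1, C1qtnf1 and Sulf2 are 5 mouse genes that had counts in every wild-type library of esophageal organoids and almost none in either gene-edited group. They were picked by name from the 8742 genes found in at least 1 of the 3 deposited comparison tables, because their counts were nearly absent in both edited groups. The counts of all 9 libraries therefore chose them, and their drop is given here as a description without a test. All 5 have an entry for each of the 9 libraries, 0 included, as 6644 of the 8742 genes do.

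The organoids were grown from mouse esophageal epithelium without treatment and were collected at day 7 after seeding for total RNA. The wild-type group (WT) had 3 libraries, the group labelled Trp53;Notch1 KO (PN) had 3, and the group labelled Trp53;Cdkn2a;Notch1 KO (PCN) had 3. Both edited groups thus share the labelled loss of Trp53 and Notch1, and differ by Cdkn2a. The labels give neither strain, age, editing method nor number of clones, and they do not state whether the 3 libraries per group are separate cultures or separate mice. Each library held between 14695420 and 20198041 counts, with the WT libraries (at most 15093994) shallower than the edited ones (at least 16857744).

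The targeted genes were read first, in CPM, the count scaled to the library total. In the WT libraries Trp53 stood at 120 ± 1.66 CPM, against 2.61 ± 0.546 for PN and 3.07 ± 0.775 for PCN (SD, n = 3 for every group mean in this text). Notch1 stood at 244 ± 31.9, 148 ± 6.78 and 71.3 ± 5.26 CPM in the same order. Cdkn2a RNA went against the label, with a WT mean of 8.996 ± 2.17 CPM, a PN mean of 22.1 ± 0.600 and a mean of 65.2 ± 4.35 for the libraries labelled PCN. A count over a whole gene does not check an edit.

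The 5 genes work in different places in the cell. EID2 (EP300-interacting inhibitor of differentiation 2) is a nuclear protein that represses transcription by holding back acetyltransferase coactivators. Neurobeachin, the product of Nbea, is a very large BEACH domain protein that anchors protein kinase A and takes part in the traffic of membrane vesicles, and is best known from neurons. DEPP1 is an autophagy regulator whose gene is induced by FOXO transcription factors. C1QTNF1 is a secreted protein with a C1q-like domain, related to adiponectin. SULF2 is a secreted sulfatase that removes 6-O-sulfate groups from heparan sulfate outside the cell, and so alters how growth factors bind to the cell surface.

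The promoters of these genes are shown because their base composition differs widely. Each is the 300 bases from 250 before to 50 after an annotated start, from RefSeq on GRCm38.p6, written 5′ to 3′ on the gene's own strand with CpG dinucleotides in capitals. The RefSeq table matched 4 of the 5 genes with 5 promoters, and C1qtnf1 was not among them. The Eid2 promoter is chr7:28267631-28267930 on the plus strand, Nbea is chr3:56183652-56183951 on the minus strand, Depp1 is chr6:116650434-116650733 on the plus strand, and the first of the Sulf2 starts is chr2:166155634-166155933 on the minus strand.
Eid2: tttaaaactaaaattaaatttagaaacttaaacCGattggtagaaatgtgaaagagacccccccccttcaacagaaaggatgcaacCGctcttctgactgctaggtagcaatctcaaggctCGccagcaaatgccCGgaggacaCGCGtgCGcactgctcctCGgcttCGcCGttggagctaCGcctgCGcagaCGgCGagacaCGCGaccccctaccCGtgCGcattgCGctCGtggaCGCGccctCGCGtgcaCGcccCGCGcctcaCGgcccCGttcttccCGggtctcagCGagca
Nbea: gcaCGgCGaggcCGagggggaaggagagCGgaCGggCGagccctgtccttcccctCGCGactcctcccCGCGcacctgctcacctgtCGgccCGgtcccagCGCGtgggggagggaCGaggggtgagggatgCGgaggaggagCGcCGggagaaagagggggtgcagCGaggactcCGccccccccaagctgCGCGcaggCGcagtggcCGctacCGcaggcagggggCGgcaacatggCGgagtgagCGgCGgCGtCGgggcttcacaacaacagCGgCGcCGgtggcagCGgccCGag
Depp1: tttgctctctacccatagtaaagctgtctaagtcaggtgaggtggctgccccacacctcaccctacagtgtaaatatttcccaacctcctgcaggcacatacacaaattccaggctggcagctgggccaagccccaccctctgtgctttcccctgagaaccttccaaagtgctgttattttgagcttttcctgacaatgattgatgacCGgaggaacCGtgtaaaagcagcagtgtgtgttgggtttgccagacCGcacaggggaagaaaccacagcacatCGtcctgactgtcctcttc
Sulf2: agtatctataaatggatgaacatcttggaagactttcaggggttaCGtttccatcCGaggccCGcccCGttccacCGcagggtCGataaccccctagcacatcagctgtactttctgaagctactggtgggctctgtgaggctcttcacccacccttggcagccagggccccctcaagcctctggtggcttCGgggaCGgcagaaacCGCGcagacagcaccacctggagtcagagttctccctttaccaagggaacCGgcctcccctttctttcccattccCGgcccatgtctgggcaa

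The Nbea promoter holds 36 CpG dinucleotides, more than 93.8% of the 32851 promoters in the table, whose median is 7. The Eid2 promoter holds 31, and its ratio of observed to expected CpG, 1.22, is higher than that of 99.7% of promoters. Depp1 lies at the other end, with 4 CpG and a ratio of 0.203 against a median of 0.384. The first Sulf2 start has 12 CpG, and the second Sulf2 start (chr2:166155236-166155535, not printed) has 26. That second start has a ratio of 0.921, above the 0.872 of Nbea, so Eid2, Nbea and 1 of the Sulf2 starts are CpG-rich and Depp1 is CpG-poor.

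**Figure D1:**
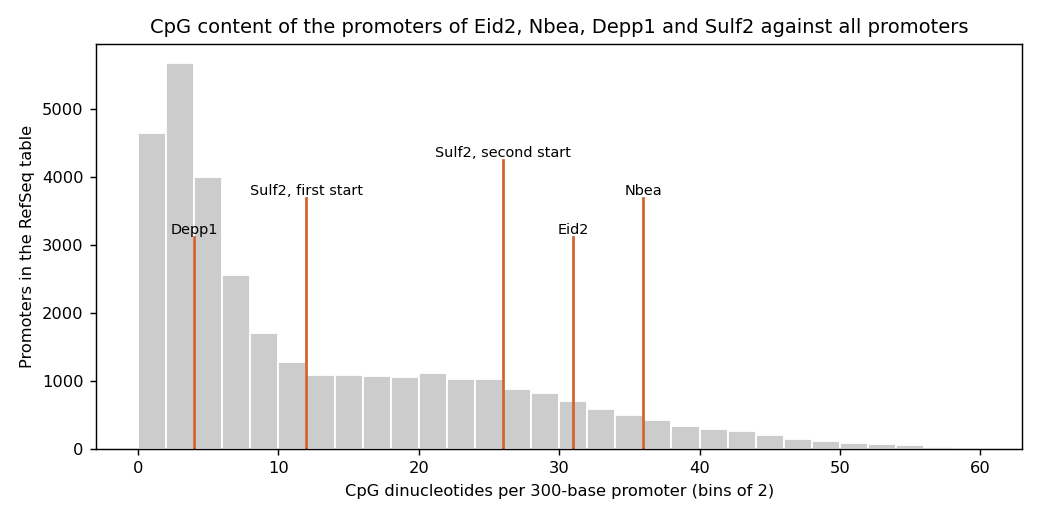
Number of RefSeq promoters (vertical axis) by CpG dinucleotides per 300-base promoter (horizontal axis, bins of 2). Vertical lines mark the promoters of Eid2, Nbea, Depp1 and Sulf2: Depp1 at 4 lies below the median of 7, and Eid2 at 31 and Nbea at 36 lie in the upper tail.

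A search of both strands for 10 short motifs found none shared by all 5 promoters. TGGGAA, the core bound by RBPJ, the DNA-binding partner of Notch, was found once in Depp1, with its first base at -173 from the start, and once in the first Sulf2 promoter at +23, and 25.6% of all promoters hold it. The GC box GGGCGG was found at 2 places in Nbea and at 1 in the first Sulf2 promoter (35.7% of promoters hold it). CCAAT was found in Eid2 and in the second Sulf2 promoter (37.4%), while TATAAA (13.6%) and the TEAD motif GGAATG (14.7%, at +27 and overlapping the bases of the RBPJ match) were each found in the first Sulf2 promoter. The E-box CACGTG (7.15%), the FOXO motif TGTTTAC (3.65%), the E2F motif TTCCCGC (4.60%), the AP-1 motif TGANTCA (7.81%) and the p53 decamer (8.36%) were found in none of the 5 windows. A match is a string of letters and says nothing of binding.

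Eid2 was the one gene of the 5 with no count in any edited library. Its counts were 91, 90 and 54 in the WT libraries, and 0 in each of the 3 PN and 3 PCN libraries. In WT it stood at 5.26 ± 1.46 CPM, with WT replicate 3 lowest: its exact 95% Poisson interval of 40.6 to 70.5 counts ends below those of the other two (73.3 to 112 and 72.4 to 111). Set at a floor of 3 counts over the whole group, Eid2 would be 92.3-fold lower in PN and 98.4-fold lower in PCN. That floor is 1.08% and 1.02% of WT. The exact 95% upper limits lie higher, at 1.34% and 1.26%, so these folds are not 95% lower limits. With fewer libraries the fold at the floor was lower: 59.2-fold without PN replicate 3 and 63.1-fold without PCN replicate 1. In bulk RNA, fewer cells that express a gene and less RNA per cell cannot be told apart, here and for every gene below.

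Nbea had 130, 177 and 157 counts in WT, 0, 0 and 1 in PN, and 0 in all 3 PCN libraries. Its mean in WT was the highest of the 5 genes in CPM, 10.4 ± 1.68. The single count in PN put it at 0.183% of WT (exact 95% interval 0.00462 to 1.02%). In PCN the floor of 3 counts would put it 194-fold lower (125-fold without PCN replicate 1). The exact 95% upper limit there was 0.635% of WT, above that floor. Every WT library thus held over 100 counts of the gene, and the 6 edited libraries held 1 between them, in PN replicate 3.

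Depp1 had 78, 68 and 111 counts in WT, 0, 2 and 0 in PN, and 3, 6 and 2 in PCN. The WT mean was 5.73 ± 1.44 CPM, and WT replicate 3 was the highest, with an interval of 91.3 to 134 counts against 52.8 to 86.2 in replicate 2. The level left was 0.660% of WT in PN (0.0795 to 2.41%) and 3.41% in PCN (1.68 to 6.20%). Every PCN library kept some counts of Depp1, and 1 PN library did. The PN value was 0 without PN replicate 2 and 1.03% without PN replicate 3, and the PCN value was 2.24% without PCN replicate 2.

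C1qtnf1 had 110, 95 and 105 counts in WT, 2, 0 and 1 in PN, and 8, 2 and 3 in PCN. Its WT libraries lay close together, at 6.92 ± 0.442 CPM. The level left was 0.821% of WT in PN (0.168 to 2.42%) and 3.34% in PCN (1.76 to 5.79%). The PCN value leaned on PCN replicate 1, and was 2.00% without that library, and the PN value was 0.402% without PN replicate 1.

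Sulf2 had 126, 139 and 137 counts in WT, 2, 0 and 2 in PN, and 2, 1 and 2 in PCN. It stood at 8.98 ± 0.527 CPM in WT, the tightest of the 5 with a coefficient of variation of 5.87%, against 27.7% for Eid2. The level left was 0.844% of WT in PN (0.229 to 2.18%) and 0.990% in PCN (0.320 to 2.33%), with intervals that overlap over most of their length.

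**Figure D2:**
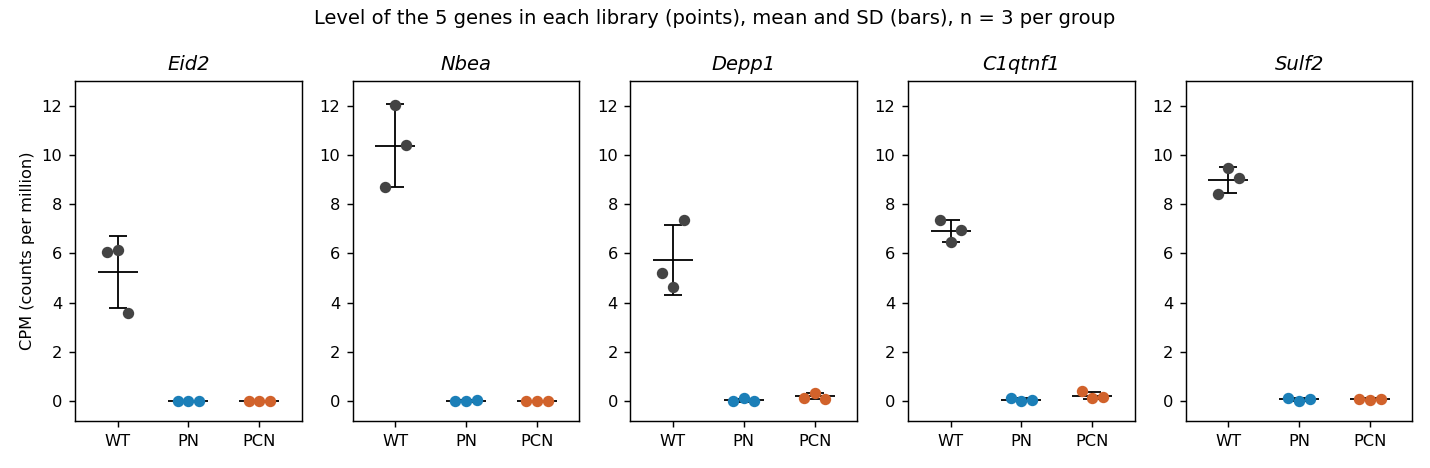
CPM (vertical axis) of each of the 5 genes in the WT, PN and PCN libraries. Points are single libraries and bars are the mean and SD, n = 3 per group: every WT point lies at 3.58 CPM or above, and every PN and PCN point lies at 0.396 CPM or below.

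Together the 5 genes had 535, 569 and 564 counts in the WT libraries, 4, 2 and 4 in PN, and 13, 9 and 7 in PCN. Of the 15 gene-by-library values in PN, 9 were 0, and of the 15 in PCN, 6 were 0. Most of the PCN counts belonged to Depp1 (11) and C1qtnf1 (13). The PCN level was 5.16 times the PN level for Depp1 (exact 95% interval 1.13 to 47.9) and 4.06 times for C1qtnf1 (1.12 to 22.2), and 1.17 times for Sulf2 (0.252 to 5.91). These ratios rest on 2 to 13 counts a group, cover counting error only and were looked at with the counts known. Leaving out each edited library in turn, chosen after seeing the data, gave 3.31 to 6.31 for Depp1, with no ratio to give without PN replicate 2, and 2.44 (without PCN replicate 1) to 8.30 (without PN replicate 1) for C1qtnf1. The interval for Depp1 reached below 1 without PN replicate 1 or 3 or PCN replicate 2, and that for C1qtnf1 without PN replicate 2 or 3 or PCN replicate 1. None of the 5 genes stood in the authors' deposited table of PCN against PN.

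In the authors' deposited table of the PN and WT pair, Nbea and Eid2 had the most negative log2 fold changes of all listed genes, -8.98 and -8.96, with Depp1 at -7.23, C1qtnf1 at -6.92 and Sulf2 at -6.88 in places 12, 18 and 21. In the authors' deposited table for PCN against WT, Nbea (-10) and Eid2 (-9.06) again led, Sulf2 (-6.66) was in place 23, and C1qtnf1 (-4.91) and Depp1 (-4.86) were in places 119 and 136. All 5 are listed as lower in both tables, which share the WT libraries. By the quasi-likelihood test of edgeR (Benjamini-Hochberg adjusted p below 0.05), 18.8% of all genes tested were called lower in PN and 19.0% in PCN. Here and below, all genes tested means those the authors adjusted over, 17165 in the first contrast and 17300 in the second. Of these, only 6295 and 6404 were fitted here, all listed by the authors, and the rest count as not called. Nothing is read from the count of 5, since these contrasts chose the genes.

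Per transcript length the order in WT was different. In FPKM, the authors' CPM per kilobase of exon, Depp1 stood at 4.22 ± 1.06 and Eid2 at 3.78 ± 1.05, and their libraries overlapped. C1qtnf1 followed at 2.21 ± 0.141, then Sulf2 at 1.53 ± 0.0898, and Nbea, first in CPM, came last at 0.331 ± 0.0536. The authors' length for Nbea is 31361 bases, all exons of all transcripts joined. With the longest single transcript in its place, Nbea was still last, at 0.945 CPM per kilobase, and Depp1 (4.28) and Eid2 (3.78) still led. None of the 5 was abundant in WT: by CPM, 19.3% to 27.1% of the 8173 genes with WT values stood lower. Those are genes the authors called against WT, so these are places among called genes and not among all expressed genes.

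Few other genes had so little left in both edited groups. Among 5520 protein-coding genes with an entry for all 9 libraries and at least 5 CPM in WT, the median level was 93.4% of WT in PN and 95.1% in PCN. Ranked by the larger of the 2 percentages, with groups without counts taken as 0, Eid2, Nbea and Sulf2 stood ahead of all others, C1qtnf1 was 18th and Depp1 20th. The places describe genes chosen for this value, and the order at the top is not resolved, since the floor for Eid2 lies above the values of Sulf2. The next gene was Alox15, a lipoxygenase (0.439% in PN and 0.991% in PCN), and 37 genes were at 5% or less in both groups.

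Among the next most alike genes were Rnf186, a ubiquitin ligase (1.33% in PN and 1.87% in PCN), Kbtbd11, a BTB and Kelch domain protein (1.45% and 1.88%), the glycosyltransferase Abo (2.31% and 2.17%) and the protocadherin Pcdhgb6 (1.13% and 2.48%). The exons that Pcdhgb6 shares with the rest of its gene cluster make its count uncertain. The targeted gene Trp53 was 12th, at 2.16% and 2.59%. C1qtnf1 and Depp1 stand beyond it because of PCN: in PN they were below 1%. Of the 5520 genes ranked, Rnf186 and Pcdhgb6 were the 2 others with as few counts, at most 4 over PN and 13 over PCN. Genes below 5 CPM in WT were not ranked, and some of them had as few.

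**Figure D3:**
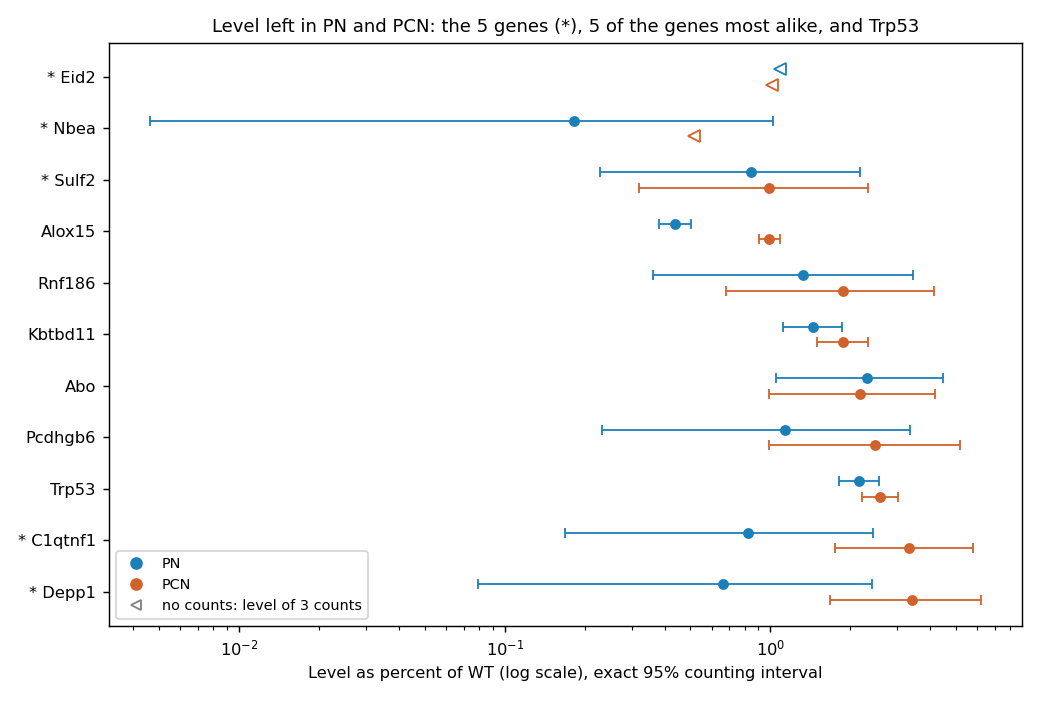
Level left in PN and PCN as a percent of WT (horizontal axis, log scale) for the 5 genes (starred), 5 of the genes most alike and Trp53. Points carry exact 95% counting intervals and open triangles give the level that 3 counts would mean where a group had none: Depp1 and C1qtnf1 have PCN points near 3.4% and 3.3%, and PN points under 1%.

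The 5 genes lie on 5 chromosomes (GRCm38, GENCODE M21, in the same coordinates as the deposited files). Eid2 (ENSMUSG00000046058) is a gene of 1 exon on chromosome 7, 28267881 to 28269272. Nbea (ENSMUSG00000027799) spans 558.5 kb of chromosome 3, 55625195 to 56183701, in transcripts of up to 58 exons. Depp1 (ENSMUSG00000048489, chromosome 6, 116650609 to 116652794) lies wholly inside Rassf4 on the opposite strand and shares no exon base with it. C1qtnf1 (ENSMUSG00000017446, chromosome 11, 118428203 to 118449963) overlaps the antisense gene Gm11747, and Sulf2 (ENSMUSG00000006800, chromosome 2, 166073089 to 166155663) overlaps the end of Ncoa3 by 154 exon bases, 2.62% of its exons.

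How far reads could be shared with other genes was checked on all 50-base windows of the annotated transcripts. No window of Eid2 or Depp1 occurs in a transcript of another gene, so none is shared between Eid2 and its relative Eid2b. In Nbea 3.20% of windows do, mostly with Mab21l1, which lies within Nbea, and in Sulf2 1.79%, with Ncoa3. C1qtnf1 had the largest share, 20.1%, of which 594 of 624 windows belong to the antisense Gm11747. The strand setting of the authors' counting is not given in the sources used here, so C1qtnf1 and Gm11747 cannot be told apart over that stretch.

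The listed genes around Eid2 were mostly higher in the edited groups, and those around the other genes were few. Within 500 kb, 32 listed genes lay beside them or overlapped them. By edgeR's quasi-likelihood test at a Benjamini-Hochberg adjusted p of 0.05, 12 of these were higher and 9 lower in PN than in WT, beside 17.6% and 18.8% of all genes tested. In PCN, 13 were higher and 8 lower, beside 17.5% and 19.0%. Around Eid2 alone, 10 were higher and 2 lower in PN, and 10 higher and 3 lower in PCN. In PN, 1 was higher and 0 lower around Nbea, 0 and 2 around Depp1, 1 and 3 around C1qtnf1, and 0 and 2 around Sulf2. In each contrast 1 more was fitted and not called, and the rest had no fit. Some were not listed for that contrast. Others were listed with too few counts to be fitted, all of them lower, and the numbers above leave them out. These were Rassf4, 9530053A07Rik, 103.1 kb from Eid2 (31 counts over WT, 3 over PN, 1 over PCN), and Lgals3bp, 26.1 kb from C1qtnf1 (38 over WT, 4 over PN). Only listed genes have values, so most of these neighbours had to differ, and their counts are not comparable with those shares. Listed or not, the windows hold 55 annotated genes around Eid2, 23 around Nbea, 29 around Depp1, 20 around C1qtnf1 and 21 around Sulf2.

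Beside Eid2, its relative Eid2b, 8.5 kb away and also an inhibitor of differentiation, stood at 10.7 ± 1.08 CPM in WT and 7.43 ± 1.46 in PCN (log2 fold change -0.52, SE 0.17, edgeR adjusted p = 0.029). That call was lost with another scaling (TMM on the listed genes) and without WT replicate 1 or 2 or PCN replicate 1 or 3, and Eid2b had no value in PN. On the other side Fbl, the fibrillarin of the nucleolus, rose from 112 ± 8.29 CPM to 148 ± 2.03 (PN) and 156 ± 8.14 (PCN) (log2 fold changes 0.41, SE 0.07, and 0.48, SE 0.08; edgeR adjusted p = 0.00049 and 0.00024). Nccrp1, named here after its values were seen, lies 274.3 kb from Eid2 and fell from 276 ± 42.2 CPM to 6.84 ± 2.05 in PN and 9.24 ± 0.924 in PCN (edgeR adjusted p = 3.7e-08 and 2.3e-11).

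Beside Nbea, the kinase gene Dclk1, 86.1 kb away, moved in opposite directions in the edited groups. From a WT mean of 6.41 ± 1.19 CPM it rose to 13.7 ± 1.17 in PN (log2 fold change 1.11, SE 0.16, edgeR adjusted p = 9.5e-05) and fell to 2.13 ± 0.419 in PCN (-1.57, SE 0.24, adjusted p = 0.00011). The direct comparison of PCN with PN gave -2.67 (SE 0.16, edgeR adjusted p = 1.1e-13). Nbea itself was nearly absent in both groups.

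Beside Depp1, the zinc finger gene Zfp422, 21.6 kb away, fell from a WT mean of 6.74 ± 2.42 CPM to 0.819 ± 0.314 with PN (log2 fold change -3.02, SE 0.35, edgeR adjusted p = 1.3e-05) and stood at 9.18 ± 0.696 in PCN. PCN was higher than PN by 3.48 (SE 0.23, edgeR adjusted p = 4.3e-13). Rassf4, which contains Depp1, had 18 counts over WT and 1 over PN. Depp1 and Zfp422 were thus both low in PN, and in PCN Zfp422 had a mean above that of WT while Depp1 stayed at 3.41% of WT.

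Beside C1qtnf1, Engase, a cytosolic enzyme that trims N-glycans, fell from 39.5 ± 6.02 CPM to 10.5 ± 2.28 in PN and 10.3 ± 0.279 in PCN (log2 fold changes -1.90, SE 0.16, and -1.94, SE 0.13; edgeR adjusted p = 1.6e-06 and 4.2e-08). Cant1, 9.1 kb away on the other side, was called lower in PN by 0.22 (SE 0.07, edgeR adjusted p = 0.027). The Cant1 call was lost with TMM and without any 1 of 5 libraries. Beside Sulf2, the nearest listed gene that does not overlap it, Zmynd8, a reader of chromatin marks 174.1 kb away, was lower by 0.24 in PN and 0.25 in PCN (edgeR adjusted p = 0.033 in each), and both calls were lost with TMM and without some of the libraries. Ncoa3, whose last exon bases overlap Sulf2, stood at 75.0 ± 1.36 CPM in PN and 87.9 ± 3.04 in PCN.

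**Figure D4:**
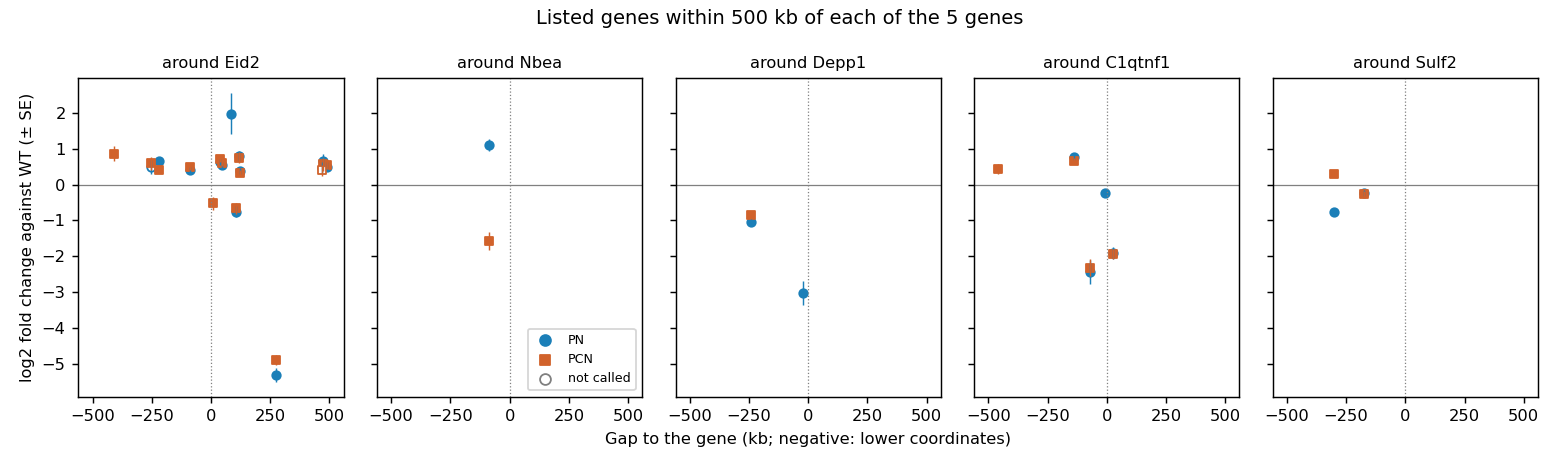
Log2 fold change against WT (vertical axis, bars are SE) of the listed genes within 500 kb of each of the 5 genes, by gap in kb (horizontal axis, negative at lower coordinates). Only genes with a fitted value are drawn. Circles are PN and squares PCN, open where not called: points on both sides of 0 lie around all but Depp1, and Nccrp1 is the point near -5 beside Eid2.

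The genes that work with each of the 5 were taken from 6 lists and counted in the same edgeR tests. Median log2 fold changes below are over fitted members, and those over all fitted genes were -0.26 (PN and WT), -0.28 (PCN and WT) and 0.16 (PCN over PN). Both contrasts with WT use the same WT libraries. Against PN, 23.8% of all genes tested were called in PCN, 12.3% higher and 11.5% lower.

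Around Sulf2, of 33 enzymes that build or edit heparan sulfate, 12 (36.4%) fell and 4 (12.1%) rose in PN, beside 18.8% and 17.6% of all genes tested (median -0.42). In PCN 8 (24.2%) fell and 6 (18.2%) rose, near the 19.0% and 17.5% of all genes tested (median -0.36). Hs3st3a1, a 3-O-sulfotransferase, fell from 8.24 ± 0.101 CPM to 2.602 ± 0.707 and 3.62 ± 0.308 (log2 fold changes -1.66 and -1.18). Heparanase (Hpse), which cuts the chains, fell from 38.3 ± 2.93 to 13.6 ± 1.44 and 23.0 ± 1.01 CPM (-1.48 and -0.73). Xylt1, which starts the chain on its core protein, rose from 0.871 ± 0.501 to 2.53 ± 0.395 and 3.46 ± 0.599 CPM (1.54 and 1.99). Sulf1, the other member of the SULF pair, had no value in the tables. In PCN against PN, 5 enzymes (15.2%) were higher and 0 lower, beside 12.3% and 11.5% of all genes tested. Hpse was among the higher ones (0.75, SE 0.10, edgeR adjusted p = 5.2e-07).

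Of 14 proteins that carry heparan sulfate, 4 (28.6%) rose and 2 (14.3%) fell in PN, beside 17.6% and 18.8% of all genes tested (median 0.23). In PCN 4 (28.6%) rose and 3 (21.4%) fell, beside 17.5% and 19.0% (median 0.49). The betaglycan gene Tgfbr3 rose from 7.33 ± 0.971 CPM to 25.9 ± 0.884 and 31.6 ± 2.52 (log2 fold changes 1.83 and 2.11). Syndecan 1 (Sdc1), the chief heparan sulfate carrier of squamous epithelium, fell from 1865 ± 188 to 961 ± 29.0 and 540 ± 22.2 CPM (-0.95 and -1.79). The glypican Gpc4 rose from 48.7 ± 3.72 to 64.2 ± 3.84 and 91.6 ± 3.20 CPM (0.41 and 0.91). In PCN against PN, 5 (35.7%) were higher and 3 (21.4%) lower, beside 12.3% and 11.5% of all genes tested.

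Around Depp1, of 30 FOXO factors and genes they induce, 14 (46.7%) fell and 3 (10%) rose in PN (median -0.63). In PCN 13 (43.3%) fell and 3 (10%) rose (median -0.64). Of all genes tested, 18.8% fell and 17.6% rose in PN, and 19.0% fell and 17.5% rose in PCN. Of the factors, Foxo3 fell from 140 ± 3.89 CPM to 71.7 ± 2.17 and 89.6 ± 6.62, and Foxo1 from 59.5 ± 8.02 to 34.3 ± 1.89 and 40.9 ± 2.95. Foxo6, named here after its values were seen, did not follow them, at 2.18 ± 1.37 CPM in WT, 4.46 ± 0.403 in PN (log2 fold change 1.05, edgeR adjusted p = 0.064) and 1.30 ± 0.694 in PCN, lower than PN by 1.75 on the log2 scale (adjusted p = 1.7e-05). Fbxo32, a ubiquitin ligase subunit, fell from 9.60 ± 0.736 to 2.30 ± 0.971 and 4.34 ± 0.575 CPM (log2 fold changes -2.06 and -1.14). Ccng2, an unusual cyclin of cells leaving the cycle, fell from 107 ± 7.49 to 36.9 ± 1.69 and 46.5 ± 4.85 CPM (-1.52 and -1.19). The stress protein gene Sesn2 fell by 1.12 and 1.31 on the log2 scale. The 3 genes that rose, in PN and in PCN, were its relatives Sesn1 (0.25 and 0.75) and Sesn3 (0.33 and 0.49), and Txnip (0.31 and 0.86). In PCN against PN, 11 of the 30 (36.7%) were higher and 4 (13.3%) lower (median 0.32), beside 12.3% and 11.5% of all genes tested. Fbxo32 was higher by 0.92 (SE 0.24, edgeR adjusted p = 0.0041) and Foxo3 by 0.32 (SE 0.06, adjusted p = 9.1e-05). Fbxo32, the gene of this list with the largest named fall, thus kept far more of its WT level than Depp1, at 0.660% in PN.

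Around Eid2, the EID proteins and their partners were split. Of 23 genes, 6 (26.1%) rose and 4 (17.4%) fell in PN, beside 17.6% and 18.8% of all genes tested (median 0.32). In PCN 5 (21.7%) rose and 6 (26.1%) fell, beside 17.5% and 19.0% (median -0.26). Eid1, the founding member, rose from 55.6 ± 8.94 to 82.9 ± 4.12 CPM in PN (log2 fold change 0.59, edgeR adjusted p = 5e-04) and stood at 58.3 ± 4.99 in PCN, lower than PN by 0.51 (SE 0.06, edgeR adjusted p = 2.8e-07). The acetyltransferase Kat2b fell by 0.63 in PN and by 0.48 in PCN on the log2 scale. The pocket protein gene Rbl1 rose by 0.56 and 0.39. Smc6, of the SMC5/6 complex, rose by 0.58 in PN and was lower than WT by 0.26 in PCN, where TMM and the loss of some libraries ended the call. In PCN against PN, 2 (8.70%) were higher and 5 (21.7%) lower, beside 12.3% and 11.5% of all genes tested.

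Around Nbea, few listed genes were available. Of 14 BEACH domain proteins and protein kinase A subunits, 2 (14.3%) rose and 1 (7.14%) fell in PN (median 0.41). In PCN 4 (28.6%) rose and 3 (21.4%) fell (median 0.40). Of all genes tested, 17.6% rose and 18.8% fell in PN, and 17.5% rose and 19.0% fell in PCN. Nbeal2, a relative known for platelet granules, fell from 184 ± 22.2 CPM to 70.6 ± 8.15 and 70.3 ± 1.55 (log2 fold changes -1.37 and -1.38), so the more abundant relative fell without nearing 0. Prkar2a, a regulatory subunit of protein kinase A, rose by 0.47 and 0.49, and Wdfy3, a BEACH protein of selective autophagy, by 0.41 and 0.57. Lrba, the closest relative of Nbea, had no value in PN, and stood at 105 ± 17.9 CPM in WT and 83.1 ± 7.34 in PCN (-0.33, edgeR adjusted p = 0.042), a call lost with TMM and without 4 of the 6 libraries in turn. In PCN against PN, 2 (14.3%) were higher and 1 (7.14%) lower, beside 12.3% and 11.5% of all genes tested.

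Around C1qtnf1, no other C1q and TNF related gene had a value. Of 23 such proteins and adiponectin receptors, 3 fell and 0 rose in PN and in PCN (medians -0.47 and -0.62). Larger shares of all genes tested were called, 18.8% lower and 17.6% higher in PN, and 19.0% lower and 17.5% higher in PCN. The 3 genes that fell were all receptors. These were Cdh13, or T-cadherin, at 66.3 ± 2.88, 36.8 ± 1.04 and 38.7 ± 2.53 CPM in WT, PN and PCN, Adipor2 at 172 ± 15.02, 123 ± 0.848 and 117 ± 6.56, and Adipor1 at 320 ± 14.1, 231 ± 10.9 and 209 ± 5.59. In PCN against PN, 1 (4.35%) was lower and 0 were higher, beside 11.5% and 12.3% of all genes tested. The lower gene was Adipor1 (-0.15, edgeR adjusted p = 0.015), a call lost without PN replicate 3 (0.16) and without PCN replicate 1 (0.092).

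**Figure D5:**
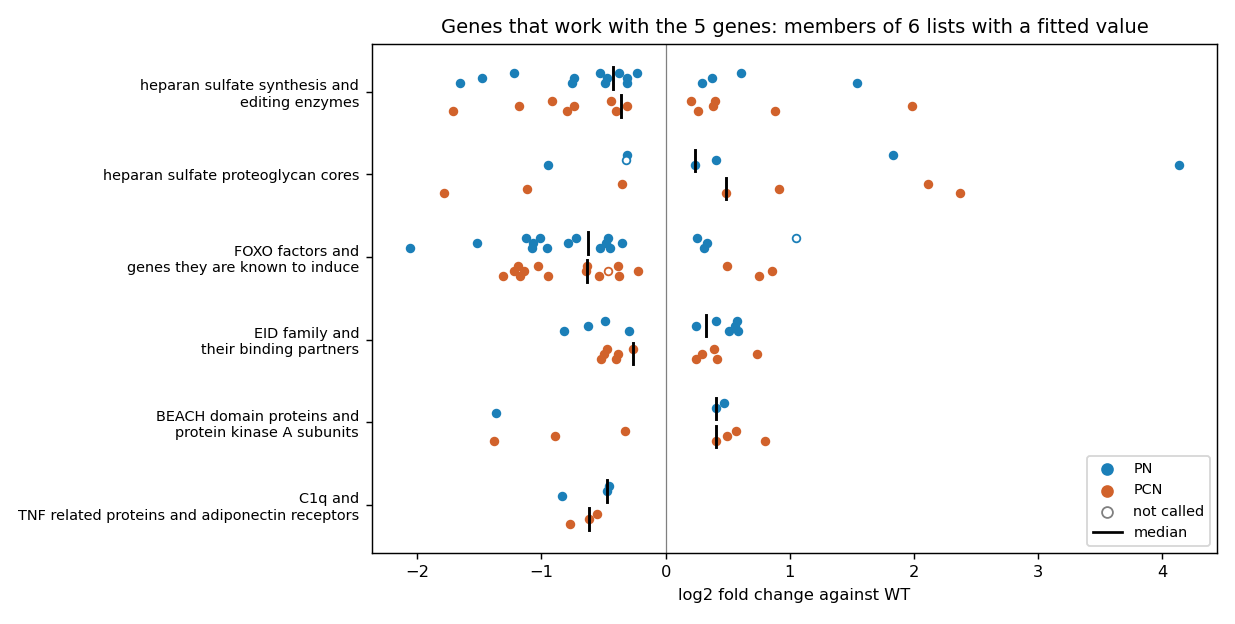
Log2 fold change against WT (horizontal axis) of the members of 6 lists with a fitted value, PN and PCN in separate colours. Filled points were called, open points were not, and the black bars are medians: the FOXO list has medians of -0.63 and -0.64, and the heparan sulfate carriers medians of 0.23 and 0.49.

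The epithelial label was read against markers, and 8 of 12 esophageal epithelial markers were listed in PN against WT. Krt13, a keratin of differentiated cells, had means of 15876 ± 645 CPM (WT), 2099 ± 79.6 (PN) and 2791 ± 77.2 (PCN), and Krt4 at 11382 ± 410, 2501 ± 74.9 and 2206 ± 46.8. The basal keratin Krt15 went the other way, from 300.4 ± 32.4 to 731 ± 15.9 and 1644 ± 37.7 CPM. Of the other keratins on the list, Krt14 stood at 1959 ± 278, 1965 ± 81.3 and 2433 ± 83.5 CPM, and Krt5 had no WT value. Trp63 was called higher in both edited groups, and Cdh1, Dsg3, Perp and Pax9 were called lower in both. Of the 12 markers, 2 (16.7%) were called higher and 6 (50%) lower in PN, beside 17.6% and 18.8% of all genes tested. In PCN 3 (25%) were called higher and 7 (58.3%) lower, beside 17.5% and 19.0%. The 5 genes were thus low in the groups in which differentiation keratins were low, and the part of cell state in their levels was not tested. Of markers of other cells, 0 of 10 for fibroblasts and 0 of 6 for muscle were listed in any table. Of 8 leukocyte markers, Cd68 alone was listed, at 107 ± 12.8, 25.2 ± 1.61 and 16.1 ± 0.970 CPM, of 7 endothelial markers Esam alone, at 9.24 ± 3.19, 5.14 ± 0.741 and 5.14 ± 0.782, and of 8 for neurons and glia Snap25, at 0.316 ± 0.316, 1.36 ± 0.202 and 1.33 ± 0.284, and Tubb3, at 3.44 ± 0.617, 5.36 ± 0.130 and 2.03 ± 0.382. Markers not listed have no values here, so their levels are not known, and the part of other cells in the counts of the 5 genes was not tested.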

How the data were processed

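RNA from 9 organoid libraries was compared in 3 deposited tables, 1 per pair of groups, which hold only genes called by the authors. The raw counts are the authors', per the file headers. Normalized signal in the deposited tables is a count over 1 size factor, set for each library within a pair. FPKM is the authors' own, per the file headers, and follows from count, gene length and library total. The log2 fold changes, p-values and adjusted p-values are the authors', per the file headers. The submitters' processing notes name CASAVA, DESeq, GRCm38 and mm10. Aligner, counter, annotation release and strand setting: not given in the sources used here.

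Library totals were recovered from counts, FPKM and length, and the number of genes adjusted over (17165 in the PN and WT pair, 17300 with PCN and WT, 14758 with PCN and PN) from the adjusted p-values. Each pair was fitted in R 4.3.3 by the edgeR 4.0.16 quasi-likelihood test (robust dispersion, filterByExpr, the authors' size factors), with Benjamini-Hochberg adjustment over that number and a threshold of 0.05. The fits held 6295, 6404 and 3546 genes. Refitting genes already called by the authors is not independent evidence, and p-values measure only the spread between libraries, which may be technical.

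Levels of the 5 genes are CPM of the recovered totals, and percentages of WT are pooled counts over pooled totals with exact 95% conditional binomial (Clopper-Pearson) intervals from scipy 1.17.1. A group without counts was set at a floor of 3 counts over the group. Intervals and floors cover counting error only.

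The 5 genes, the 12 lists and the rules were chosen with earlier results of these data known. Named besides the 5 genes were their relatives, up to 3 genes per list with the largest change in PN among those called in both contrasts with WT, the nearest listed neighbours within 500 kb, and the 6 genes most alike, of which 1 is not reported here, together with Trp53. The fit was tested on simulated counts. Replicates of a group differed by more than counting noise, so no library was counted as a repeat of another. Same-numbered WT and PN libraries deviated together from their group means (correlations 0.203, 0.123 and 0.212). Same-numbered WT and PCN libraries gave -0.172, -0.119 and -0.296, and PN and PCN libraries -0.0998, -0.117 and -0.152. Values of such size thus occurred with either sign, so they do not establish a pairing, and no label states one. The main test was unpaired. Alternatives were other scalings, DESeq2 1.42.0, no filter on low counts, a replicate block, and leaving out each library.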

Additional observations from a re-analysis of the deposited data

How the results depend on the processing

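The number of genes called stayed within 1.5 times of the main count under every alternative run, for each comparison. Only genes already called by the authors were fitted, and nearly all were called in each main run. The count thus had little room to move, and its stability was largely fixed in advance. For PN against WT, edgeR called 6248 genes, and the alternatives 5578 to 6495. For PCN against WT it called 6316, and the alternatives 5642 to 6586, and for PCN against PN 3507, and the alternatives 3216 to 3573. The replicate block gave 6277, 6075 and 3345 calls in that order. In PN against WT, the block ended no call of a named gene. It ended the calls of Lrba, Smc6 and Zmynd8 in PCN against WT and of Adipor1 and Rbl1 in PCN against PN. Pairing by number is not established for any comparison.

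Over 43 named genes, 97 fitted values and 1067 alternative values, 1016 kept their direction and their side of the threshold, 51 kept the direction and lost the call, and 0 changed sign. The lost calls were those of Adipor1, Cant1, Eid2b, Esam, Foxo1, Lrba, Rbl1, Smc6, Tgfbr3 and Zmynd8, each in 1 or 2 comparisons.

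For the 5 genes, leaving out each library in turn moved the level left in PN over 0 to 0.270% of WT for Nbea (0 without PN replicate 3), 0 to 1.03% for Depp1 (0 without PN replicate 2), 0.402 to 1.21% for C1qtnf1 and 0.620 to 1.25% for Sulf2. In PCN it ranged over 2.24 to 4.17% for Depp1, 2.00 to 4.09% for C1qtnf1 and 0.888 to 1.15% for Sulf2. Eid2 in both groups and Nbea in PCN stayed at 0. The fold at the floor of 3 counts ranged over 59.2- to 107-fold for Eid2 in PN, 63.1- to 114-fold for Eid2 in PCN and 125- to 210.2-fold for Nbea in PCN. With the authors' size factors in place of library totals, each level moved by less than its counting interval. Depth is the limit on these values: 10 counts over PN and 29 over PCN carry every comparison between the edited groups. The number of counts does not separate a gene that is off from one at the level of 3 counts.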
